A study of Rattus norvegicus with 10 samples.

Results

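The genes of triglyceride synthesis and of the lipid droplet were followed in the livers of rats fed an instant noodle diet with or without its seasonings. The set holds 10 genes, chosen by name, of the 14217 genes that the array's gene table names singly. They are Gpam, Lpin1, Lpin2, Dgat1 and Dgat2 of synthesis, Plin2 and Cideb of the droplet, and Pnpla2, G0s2 and Mgll of fat breakdown. All 18 probe sets that the table assigns to 1 of these genes alone were taken, of 31042 tested.

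The livers came from 10 male rats aged 13 weeks, with 1 array per liver. The 5 N-group rats (animals 1, 4, 7, 10 and 13) ate for 30 days a diet with 30 wt.% instant noodle, seasonings included, in which fat gave 26% of the energy. The 5 C-group rats (animals 2, 5, 8, 11 and 14) ate this diet without the seasonings, so the noodle and its fat were common to both groups. Both were pair-fed about 60 g of diet per kg body weight and day, with water freely available and 12 h of light and 12 h of dark. The labels give no strain, and the extraction text speaks of brain although every sample is labelled liver.

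Triglyceride is built in the endoplasmic reticulum of the hepatocyte by adding fatty acids stepwise to glycerol phosphate. The first acylation gives lysophosphatidate, a further one gives phosphatidate, lipins remove the phosphate to leave diacylglycerol, and diacylglycerol acyltransferases add the last fatty acid. The product is stored in droplets coated by perilipins, secreted in very low density lipoprotein, or taken apart by lipases. All of these steps run in hepatocytes.

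The deposited values are log2 signals, each specific to its probe set, so each level was set against the same probe set in other livers. A probe set was called varying where its SD over the 10 livers exceeded 0.01 log2 units, which held for 4050 of 31042 (13.0%). Of the 18 member probe sets 13 varied, with SDs between 0.14 and 0.53, and 5 were near-constant, with SDs of at most 0.0019. No member probe set lay between these ranges. Array medians ran from 6.47 to 6.48, and correlations between livers over the varying probe sets from 0.943 to 0.986. A check of the labelled tissue by its markers was limited, since 5 of the 8 hepatocyte markers and 5 of the 6 brain markers measured were near-constant. The varying brain marker, Mbp, read 6.89 to 7.79 in N-group and 6.85 to 7.34 in C-group livers. By level, the 8 hepatocyte markers had a median of 13.46, and 0 of them lay below the array median in every liver. The 6 brain markers had a median of 6.15, and 4 of them (Snap25, Syt1, Rbfox3 and Nefl) lay below the array median in every liver. All N-group arrays carry the letter A and all C-group arrays the letter B in their sample codes, so that this letter and the diet cannot be told apart. C-group animal 11 stood apart in the clock output gene Dbp, at 7.28 against 9.08 to 9.43 in the other C-group livers and 5.94 to 7.05 in the N-group livers.

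No member passed the test. With limma over all probe sets and Benjamini-Hochberg adjustment, 0 of the 18 member probe sets were called at an adjusted p under 0.05, as were 0 of all 31042 (0%). The smallest adjusted p of a member was 0.676. At an unadjusted p under 0.05 there were 3 of the 13 varying member probe sets, all higher in N-group livers, namely both of Gpam and that of Plin2. The share was 12.5% over all varying probe sets and 4.48% over all probe sets. The groups did not overlap in 1 of the 13, a Gpam probe set, against 2.99% of all varying probe sets, or 1.73% counting only those higher in N-group livers. This count was 2 without N-group animal 10, C-group animal 2 or C-group animal 5. Fewer livers let groups part more easily, and the share over all varying probe sets was not counted there. A fit of the varying probe sets alone called 0 members, against 0.321% of its 4050. The median difference, N-group minus C-group, was 0.13 log2 units over the 13 varying member probe sets, of which 11 were positive, and 0.0079 over all varying probe sets, of which 53.3% were positive. Since 4 genes count with 2 probe sets each, the 9 varying genes give 7 positive and 2 negative differences by their leading probe sets. The median over the 13 was 0.044 without C-group animal 11 and 0.086 with the set of animals (1 to 7 or 8 to 14) as a block. Over all 18 member probe sets it was 0.077, and over 1 probe set per gene 0.037.

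**Figure D1:**
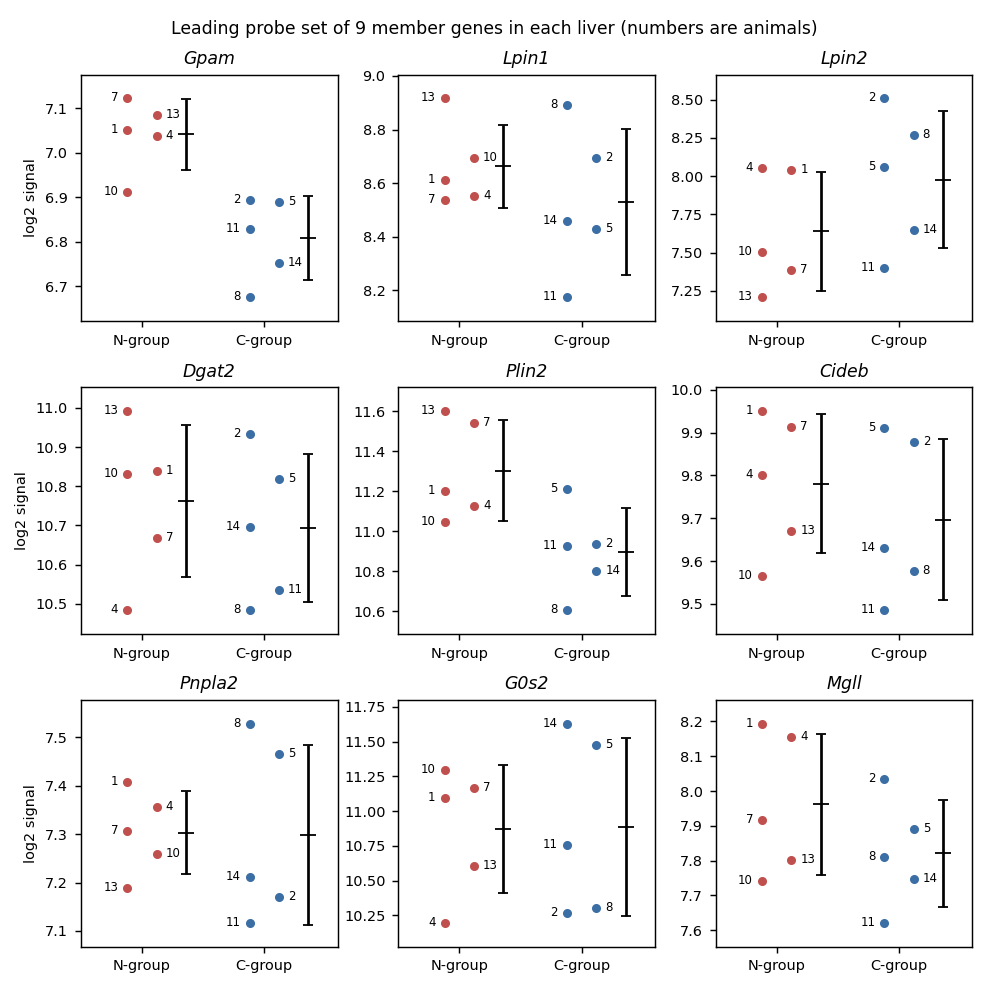
Log2 signal (vertical axes, which do not start at 0) of the leading varying probe set of 9 member genes in each liver, with N-group livers on the left and C-group livers on the right of each panel. Points are livers numbered by animal, and the bars beside them give the mean ± SD of 5 livers. The groups part completely in Gpam and overlap in the other 8 genes.

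Gpam encodes the mitochondrial glycerol-3-phosphate acyltransferase, which carries out the first acylation of the pathway and is lipogenic in liver. Its signal was higher in N-group livers with both probe sets. The probe set 1369758_at read 7.05, 7.04, 7.12, 6.91 and 7.08 in N-group animals 1, 4, 7, 10 and 13, against 6.89, 6.89, 6.68, 6.83 and 6.75 in C-group animals 2, 5, 8, 11 and 14. Every N-group liver lay above every C-group liver, with animal 10 nearest to the C-group. The means were 7.04 ± 0.08 in N-group and 6.81 ± 0.09 in C-group livers (SD, n = 5 each). The difference of 0.23 ± 0.05 log2 units (SE; 95% interval 0.11 to 0.36) is a 1.18-fold higher signal, with an adjusted p of 0.676 by limma. The exact two-sided permutation p was 0.00794, the smallest that 5 against 5 livers can give.

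The probe set 1382986_at of Gpam read 7.17, 7.13, 7.27, 6.87 and 7.12 in the N-group animals, against 6.96, 6.68, 6.42, 6.81 and 6.43 in the C-group animals. Here N-group animal 10 lay below C-group animal 2, and the other 4 N-group livers lay above all C-group livers. The difference was 0.45 ± 0.12 (SE), a 1.37-fold higher signal, with an adjusted p of 0.766 by limma and an exact permutation p of 0.0159. Both probe sets followed each other over the 10 livers, with r = 0.956, and r = 0.876 within the diets. The differences were 0.18 and 0.37 among animals 1 to 7 and 0.25 and 0.45 among animals 8 to 14. These are parts of the same 10 livers. For 1369758_at, whose groups do not overlap, both parts had to be positive. In the fit of varying probe sets the adjusted p was 0.140 for 1369758_at and 0.118 for 1382986_at. Since whole liver was measured, more cells with Gpam and more Gpam RNA per cell cannot be told apart, for this gene as for the others.

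Lpin1 and Lpin2 encode phosphatidate phosphatases, which make diacylglycerol. Lpin1 also acts in the nucleus as a transcriptional coactivator. Lpin1 probe set 1377599_at read 8.61, 8.55, 8.54, 8.69 and 8.92 in the N-group animals, against 8.70, 8.43, 8.89, 8.17 and 8.46 in the C-group animals. The groups overlapped, and the lowest liver was C-group animal 11. The difference was 0.13 ± 0.14 (SE, adjusted p = 0.9997 by limma), 0.04 without C-group animal 11 and 0.22 without C-group animal 8. The second probe set, 1372524_at, read 7.59 in C-group animal 11, against 8.13 to 8.60 in the other C-group livers and 8.28 to 8.46 in the N-group livers. Its difference was 0.16 ± 0.18, and -0.01 without animal 11, which thus decides it. The SD of 1372524_at was 0.07 in N-group and 0.41 in C-group livers.

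Lpin2 was the varying member with the lowest difference. Its probe set 1383665_at read 8.04, 8.05, 7.38, 7.50 and 7.21 in the N-group animals, against 8.51, 8.06, 8.27, 7.40 and 7.65 in the C-group animals. Animals 1 and 4 of the N-group lay just below C-group animal 5, the median of its group, and C-group animal 11 lay among the lower N-group livers. The difference was -0.34 ± 0.26 (SE; 95% interval -0.93 to 0.25), with an exact permutation p of 0.206. It was -0.46 among animals 1 to 7, -0.42 among animals 8 to 14, -0.21 without C-group animal 2, and -0.11 with the array position as a covariate. The other Lpin2 probe set, 1396398_at, was near-constant at 6.41 and gave no measure of a difference.

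Dgat1 and Dgat2 encode the enzymes that add the last fatty acid. The only probe set of Dgat1 was near-constant at 8.19 in every liver, so these data hold no usable comparison for it. Dgat2, the one tied to newly made fat, read 10.84, 10.48, 10.67, 10.83 and 10.99 in the N-group animals with 1371615_at, against 10.93, 10.82, 10.48, 10.54 and 10.69 in the C-group animals. Both groups ran over nearly the same range. The difference was 0.07 ± 0.12 (SE; 95% interval -0.20 to 0.34), and 0.13 ± 0.16 with 1391045_at, which followed the first probe set with r = 0.955. With single livers left out, 1371615_at ran from 0.01 without N-group animal 13 to 0.14 without N-group animal 4, and 1391045_at from 0.05 without C-group animal 8 to 0.23 without N-group animal 4. The 2 sets of animals differed in sign. Animals 1 to 7 gave -0.21 and -0.23, while animals 8 to 14 gave 0.34 and 0.51, a contrast that was not tested.

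Plin2 encodes perilipin 2, the main droplet coat protein of hepatocytes, whose level follows the amount of stored fat. Probe set 1390383_at read 11.20, 11.13, 11.54, 11.04 and 11.60 in the N-group animals, against 10.94, 11.21, 10.61, 10.93 and 10.80 in the C-group animals. All N-group livers lay above 4 of the 5 C-group livers, and C-group animal 5 lay above 3 N-group livers. The means were 11.30 ± 0.25 in N-group and 10.90 ± 0.22 in C-group livers (SD, n = 5 each). The difference of 0.41 ± 0.15 (SE; 95% interval 0.07 to 0.74) is a 1.33-fold higher signal, with an adjusted p of 0.954 by limma and an exact permutation p of 0.0317. Animals 1 to 7 alone gave 0.22, and animals 8 to 14 alone gave 0.54. The second Plin2 probe set, 1382680_at, was near-constant at 7.06.

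Plin2 is also made by other cells that store fat. Of the 8 adipocyte markers measured, 5 were near-constant, among them Adipoq, Lep, Fabp4 and Plin1, and the mean level of the list ran from 7.57 to 7.65 in N-group and from 7.57 to 7.64 in C-group livers. The 8 stellate cell markers ran from 7.36 to 7.45 in N-group and from 7.36 to 7.54 in C-group livers. The 6 macrophage and Kupffer cell markers ran from 7.86 to 8.49 in N-group and from 8.0 to 8.27 in C-group livers. The ranges of the groups overlapped in all 3 lists, and 0 of their 22 markers were called. The 3 varying adipocyte markers differed by 0.13 ± 0.06 (Car3, which liver also expresses), -0.05 ± 0.12 (Cidec) and -0.01 ± 0.05 (Cfd; SE). Their part in the Plin2 difference was not tested.

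**Figure D2:**
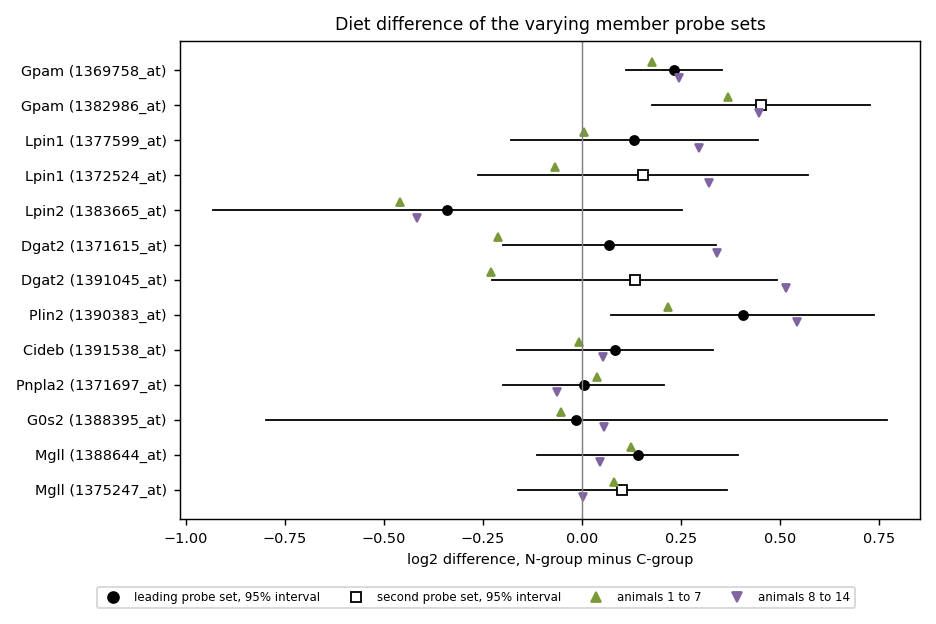
Log2 difference, N-group minus C-group (horizontal axis), of the 13 varying member probe sets, with the 95% interval of the limma fit over 10 livers. Filled circles are leading and open squares second probe sets, and triangles give the difference in animals 1 to 7 alone and in animals 8 to 14 alone. The intervals of both Gpam probe sets (0.23 and 0.45) and of Plin2 (0.41) lie above 0, while the other 10 include 0.

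Gpam and Plin2, the members with the highest differences, are shown with the bases upstream of their transcription starts. RefSeq gives 1 start for Gpam and 2 for Plin2 in the GRCr8 assembly, and the 250 bases before each start are written 5′ to 3′ along the gene's strand. Capitals mark matches to any of 8 motifs searched on both strands. The E-box was searched as CACGTG and the GC box as GGGCGG. The CCAAT box and the TATA box were searched as CCAAT and as TATAAA. The nuclear receptor half-site was AGGTCA, and its direct repeat with 1 base between the copies contains it. A sterol element was searched as TCACNCCAC and the D-box as TTATGNAA.
Gpam, chr1:264175912-264176161, minus strand: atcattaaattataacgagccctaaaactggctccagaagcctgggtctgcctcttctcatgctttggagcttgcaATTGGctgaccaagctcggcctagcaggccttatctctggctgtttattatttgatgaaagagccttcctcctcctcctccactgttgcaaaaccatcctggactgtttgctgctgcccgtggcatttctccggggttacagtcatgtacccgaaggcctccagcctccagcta
Plin2, chr5:106229019-106229268, minus strand: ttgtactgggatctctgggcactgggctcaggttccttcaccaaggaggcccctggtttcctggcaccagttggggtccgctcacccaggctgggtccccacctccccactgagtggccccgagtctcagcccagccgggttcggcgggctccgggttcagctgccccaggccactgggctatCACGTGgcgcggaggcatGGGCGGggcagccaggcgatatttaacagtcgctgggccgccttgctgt
Plin2, chr5:106228538-106228787, minus strand: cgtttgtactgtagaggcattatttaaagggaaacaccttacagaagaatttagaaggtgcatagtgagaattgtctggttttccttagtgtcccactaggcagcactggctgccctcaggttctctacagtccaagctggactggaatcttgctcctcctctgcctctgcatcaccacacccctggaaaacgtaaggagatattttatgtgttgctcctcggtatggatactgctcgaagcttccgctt
The Gpam window holds CCAAT on the opposite strand, 174 to 170 bases before the start, a motif found in 34.0% of 33469 RefSeq windows of this length. The first Plin2 window holds CACGTG 67 to 62 bases before its start, found in 5.59% of windows, and GGGCGG 49 to 44 bases before it, found in 30.5%. The other Plin2 window held no match. Their G and C contents were 51.2% for Gpam and 67.2% and 47.2% for Plin2, against a median of 51.2%. Among the 9 windows of 8 members matched in the table, CACGTG occurred also in Mgll, 74 to 69 bases before its start. None of the 8 motifs matched in both Gpam and Plin2. A match describes letters only.

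Cideb encodes a droplet protein of the CIDE family that hepatocytes use to load fat into very low density lipoprotein. Its probe set 1391538_at read 9.95, 9.80, 9.91, 9.57 and 9.67 in the N-group animals, against 9.88, 9.91, 9.58, 9.49 and 9.63 in the C-group animals. The diets overlapped throughout, with a difference of 0.08 ± 0.11 (SE; 95% interval -0.16 to 0.33). The livers parted by animal number, with 9.49 to 9.67 in animals 8 to 14 and 9.80 to 9.95 in animals 1 to 7, whatever their diet. The cut between animals 7 and 8 was chosen with earlier results of these data known. Of the 13 varying member probe sets 3 parted this way, that of Cideb and both of Mgll. Of all varying probe sets 17.7% did so, so the parting is not particular to these genes. All 6 macrophage and Kupffer cell markers were lower in animals 8 to 14, and the mean level of that list was 7.86 to 8.11 in animals 8 to 14 and 8.26 to 8.49 in animals 1 to 7. The macrophage marker Clec4f differed by -0.55 between these sets and the endothelial marker Lyve1 by -0.17. Of the 3 varying hepatocyte markers only 1 was lower in animals 8 to 14, Ambp by -0.15, while Cps1 differed by 0.28 and Apoa1 by 0.05. Of the 4 varying stellate cell markers 2 were lower in animals 8 to 14, while Dcn differed by 0.45. Their part in the parting of Cideb and Mgll was not tested. With the set of animals as a block the diet difference of Cideb was 0.02, and with single livers left out it ran from 0.03 without C-group animal 11 to 0.14 without N-group animal 10.

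Pnpla2 encodes adipose triglyceride lipase, which removes the first fatty acid from stored triglyceride. Probe set 1371697_at read 7.41, 7.36, 7.31, 7.26 and 7.19 in the N-group animals, against 7.17, 7.47, 7.53, 7.12 and 7.21 in the C-group animals. The N-group livers lay within the range of the C-group livers. The difference was 0.0046 ± 0.09 (SE; 95% interval -0.20 to 0.21), and the SD was 0.09 in N-group and 0.19 in C-group livers.

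G0s2 encodes a small protein that binds and inhibits this lipase. It was the most variable member over the livers, with a 2.70-fold range, and 96.3% of all varying probe sets had a smaller SD. Probe set 1388395_at read 11.09, 10.19, 11.17, 11.30 and 10.61 in the N-group animals, against 10.27, 11.48, 10.31, 10.75 and 11.63 in the C-group animals. High and low livers occurred in both groups, and the highest was C-group animal 14. The difference was -0.01 ± 0.34 (SE), with a 95% interval from -0.80 to 0.77, the widest interval of any member.

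Mgll encodes monoacylglycerol lipase, which frees the last fatty acid from glycerol. Probe set 1388644_at read 8.19, 8.15, 7.92, 7.74 and 7.80 in the N-group animals, against 8.03, 7.89, 7.81, 7.62 and 7.75 in the C-group animals. The difference was 0.14 ± 0.11 (SE; 95% interval -0.11 to 0.40), and 0.10 ± 0.12 with 1375247_at (r = 0.956 between the 2 probe sets). Without N-group animal 1 these differences were 0.08 and 0.04, and without N-group animal 10 they were 0.20 and 0.17. Like Cideb and the macrophage marker list, Mgll parted by animal number, with 7.62 to 7.81 in animals 8 to 14 and 7.89 to 8.19 in animals 1 to 7. With the set of animals as a block the difference of 1388644_at was 0.09, and with the array position as a covariate it was 0.24. The array position rises with the animal number within each diet. The other Mgll probe sets were near-constant at 8.30 (1370831_at) and 6.38 (1375355_at).

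Members were then set against each other over the 10 livers, each centred on its diet's mean, for all 36 pairs of the 9 varying genes, with exact permutation within the diets. No pair reached an adjusted p under 0.05 over the 36. Pearson r ran from -0.44 to 0.88, with a median of 0.15. Gpam and Plin2 had r = 0.841 (exact permutation p = 0.00194, adjusted p = 0.065) and a Spearman rho of 0.877 (exact p = 0.00139, adjusted p = 0.050), and r = 0.720 without the 2 livers farthest from the median of Gpam. Centred also on the set of animals, their r was 0.896. Lpin2 and Mgll had r = 0.884 (exact permutation p = 0.00361, adjusted p = 0.065), a rho of 0.833 (exact p = 0.00618, adjusted p = 0.10), r = 0.825 without 2 livers, and 0.858 centred on diet and set. Cideb and Mgll had r = 0.803 (exact permutation p = 0.0126, adjusted p = 0.151), a rho of 0.807 (exact p = 0.00833, adjusted p = 0.10) and r = 0.787 without 2 livers. Their r was 0.171 centred on diet and set. The part of the parting by animal number in this relation was not tested. These 3 pairs are named after their values were seen. The 5 pairs listed in the design had lower correlations, all with exact permutation p over 0.05. Plin2 and Cideb had r = 0.428 and rho = 0.534 (exact permutation p = 0.235 and 0.147), and Gpam and Dgat2 had r = 0.377 and rho = 0.612 (exact p = 0.309 and 0.0961). Lpin1 and Lpin2 had r = 0.354 and rho = 0.286 (exact p = 0.375 and 0.461), with r = 0.670 without 2 livers. Pnpla2 had r = -0.213 and rho = -0.289 with Plin2 (exact p = 0.580 and 0.487), and r = 0.008 and rho = 0.091 with its inhibitor G0s2 (exact p = 0.984 and 0.814). Over the 36 pairs the adjusted p of these r ran from 0.750 to 0.999. Without 2 livers r was 0.499, 0.414, -0.494 and 0.109 for Plin2 with Cideb, Gpam with Dgat2, Plin2 with Pnpla2 and Pnpla2 with G0s2.

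**Figure D3:**
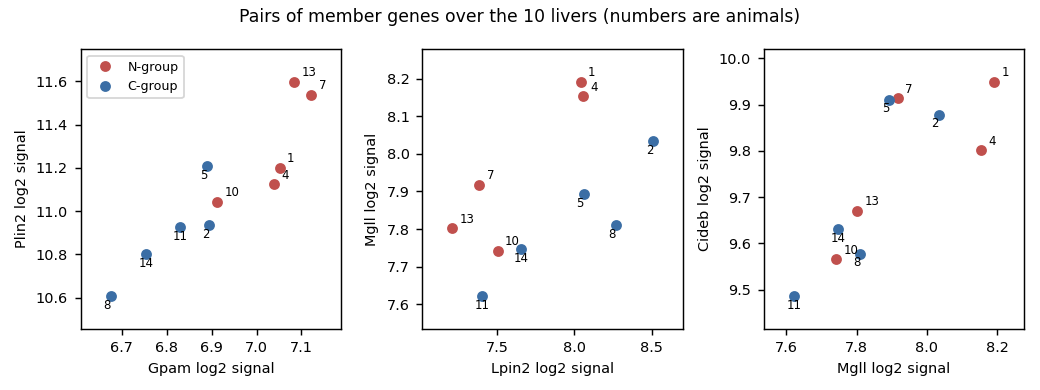
Log2 signals of the leading probe sets of 3 pairs of member genes in the 10 livers, numbered by animal, with N-group and C-group livers in different colours. Gpam and Plin2 are high or low together within either group. Livers of animals 1 to 7 and of animals 8 to 14 form separate clouds in Mgll and Cideb.

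The genes whose signal was most like that of a member over the 10 livers were sought among 2795 other varying genes, as a description. Nearest to Gpam were Lnx2 (r = 0.966) and Aqp8 (0.961), and nearest to Plin2 were Tssc4 (0.947) and Prtg (0.931). Nearest to Lpin1 were Me1 (0.852) and Magi3 (0.813), and nearest to Lpin2 were As3mt (0.928) and Spink1 (0.922). Nearest to Dgat2 were Slc41a2 (0.881) and Sphk2 (0.841). Cideb had the closest neighbours of all members, Qng1 (0.986) and Vdac1 (0.984). Nearest to Pnpla2 were Ing1 (0.933) and Acot4 (0.925), and nearest to G0s2 were Hes1 (0.948) and Traf6 (0.925). Nearest to Mgll were Ehhadh (0.975) and Ppfibp2 (0.962). The diet difference and the parting by animal number both enter these values.

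The wider pathway was followed in 47 further genes, of which 46 were measured and 24 varied. Of their 68 probe sets 0 were called in either direction, and 10 varying genes had positive and 14 negative differences, with a median of -0.03 log2 units. Over their 32 varying probe sets 11 were positive and 21 negative, against 53.3% positive among all varying probe sets. At an unadjusted p under 0.05 there was 1 varying gene in each direction, 2 of 24, against 12.5% of all varying probe sets. The groups did not overlap in 1 of these 24, Ces1d, against 2.99%.

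Among glycerol phosphate and acylation genes, 6 of 11 varied, 3 with positive and 3 with negative differences. Gpat4, the glycerol-3-phosphate acyltransferase of the endoplasmic reticulum, differed in the direction opposite to its mitochondrial counterpart Gpam. Its probe set 1372919_at read 8.44, 8.54, 8.50, 8.28 and 8.56 in the N-group animals, against 8.92, 8.71, 9.0, 8.47 and 8.91 in the C-group animals. Only C-group animal 11 lay among the N-group livers. The difference was -0.34 ± 0.10 (SE, adjusted p = 0.850 by limma), and -0.42 without animal 11. Animals 1 to 7 gave -0.32, and animals 8 to 14 gave -0.37. A second varying probe set, 1384383_at, differed by -0.20 ± 0.08. In the limma fit of varying probe sets, 1372919_at was called without animal 11, at an adjusted p of 0.0375, and was not called with all livers, at 0.175. The fit without animal 11 was added after the data were seen, and no other liver was left out of a fit of this kind. It called 84 of all 4050 varying probe sets. Gk, glycerol kinase, differed by 0.19 ± 0.12 and Agpat2, which makes phosphatidate, by 0.05 ± 0.02, and neither passed.

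The droplet genes held 8 varying genes of 16, 3 with positive and 5 with negative differences. Cidea, a CIDE family member, differed by 0.33 ± 0.24, Hilpda, a droplet protein induced by hypoxia, by -0.21 ± 0.13, and Ldaf1, which helps droplets form, by -0.18 ± 0.16. Without C-group animal 8 the differences were 0.16 for Cidea and -0.12 for Hilpda, and without N-group animal 10 that of Ldaf1 was -0.08. Ldaf1 gave 0.15 among animals 1 to 7 and -0.55 among animals 8 to 14, a contrast that was not tested. Plin4, Plin5 and Hsd17b13 were near-constant. Of the other phosphatidate phosphatase and acyltransferase genes Plpp2 and Plpp3 varied, with differences of 0.02 ± 0.07 and -0.19 ± 0.14. That of Plpp3 was -0.06 without N-group animal 7.

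Lipolysis held 7 varying genes of 8, 2 with positive and 5 with negative differences. Ces1d, a carboxylesterase that hydrolyses stored triglyceride, read 12.24, 12.14, 11.88, 11.72 and 11.75 in the N-group animals, against 11.62, 11.53, 11.62, 11.69 and 11.66 in the C-group animals. Every N-group liver lay above every C-group liver, animals 10 and 13 only just. The difference was 0.32 ± 0.11 (SE, adjusted p = 0.871 by limma), and was 0.51 among animals 1 to 7, against 0.08 among animals 8 to 14. Abhd5, the activator of the Pnpla2 lipase, differed by -0.25 ± 0.17, with 0.02 among animals 1 to 7, against -0.63 among animals 8 to 14, and -0.16 without N-group animal 10. Lipa, the lysosomal acid lipase, differed by 0.15 ± 0.15, with 0.08 without C-group animal 14 and 0.26 without N-group animal 13. Of the export genes only Apob varied, with a difference of 0.01 ± 0.12 by 1371157_at, whose mean was 8.32. The other Apob probe set, 1388190_at, was near-constant at 13.20. Mttp, which loads fat onto apolipoprotein B, was near-constant too.

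**Figure D4:**
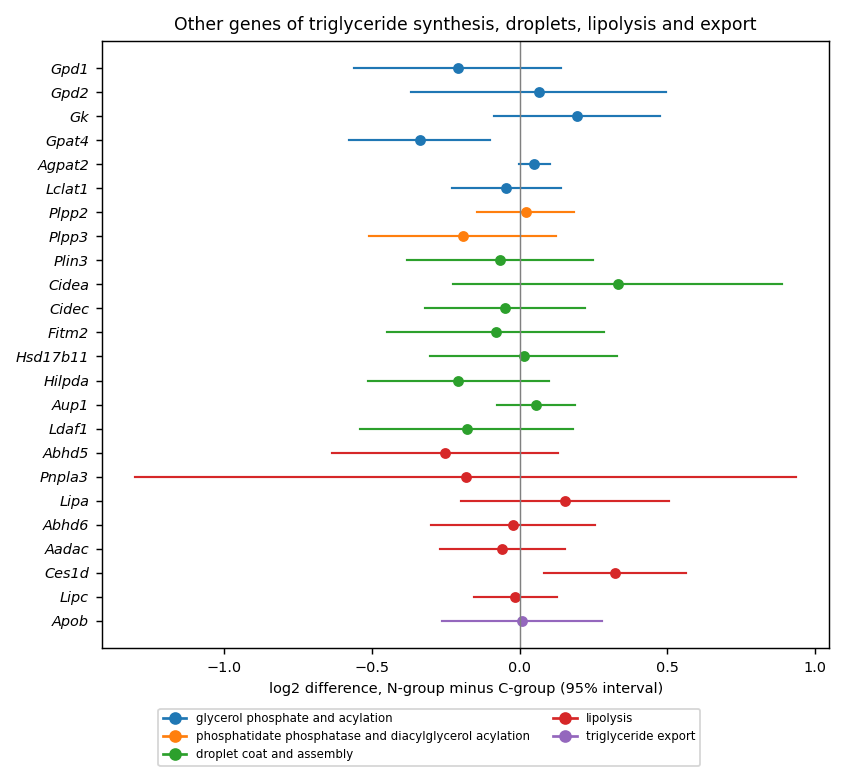
Log2 difference, N-group minus C-group (horizontal axis), of the leading probe set of the 24 varying genes of the wider pathway, coloured by role, with the 95% interval of the limma fit over 10 livers. The interval of Gpat4 (-0.34) lies below 0 and that of Ces1d (0.32) above it, and the other 22 include 0.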

How the data were processed

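Each array received cRNA carrying biotin, prepared with 100 ng of RNA per the labels' protocols. The deposited table gives 1 log2 signal per probe set and array. The summary and normalization methods are not given in the sources used here, and log2 rather than another base was inferred from their range (4.79 to 14.34). Why most probe sets hardly vary was not tested. Precision is limited by the number of arrays.

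The table lists 31099 probe sets, of which 57 controls did not enter any test. The gene table names 1 gene for 20826, several for 436 and none for 9780. Symbols were updated through the GRCr8 gene table for 20758. N-group was compared with C-group by limma 3.58.1 (lmFit, eBayes, two-sided, R 4.3.3), without covariates, adjusted over all 31042 probe sets. Values of livers are printed on the log2 scale. Permutation tests (SciPy 1.17.1) enumerated 252 assignments, or all orders within the diets for pairs. The titles number the animals separately, so p-values measure the spread between rats.

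Members, lists, the split of animals at 7 and 8 and the limit of 0.01 were chosen with earlier results of these data known. The leading probe set has the highest mean among the varying ones. Named were all members, the 3 wider-pathway genes of smallest p per role, and the 2 genes most like each member. Dbp, Plin4, Plin5, Hsd17b13, Mttp and the cell type markers are named outside this rule. A simulation made for this comparison shifted 100 varying probe sets by 0.5 log2 units and another 100 by 1. The fit over 31042 probe sets called 30% of the smaller and 77% of the larger shifts, and made 7 false calls. The fit over 4050 varying probe sets called 57% and 95%, and made 11 false calls. These rates hold for that number of shifted probe sets. They also rest on noise drawn independently for each probe set, while real probe sets can vary together over livers. The number of real differences is unknown, so the rates do not give the chance of a call in these livers.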

Additional observations from a re-analysis of the deposited data

Results flagged for a closer look

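In 50 groups of 5 livers (25 varying probe sets of the members and named wider-pathway genes, in both diets) a liver stood apart in 2, with a gap to the nearest liver above 0.71 times the whole spread of its group. About 1 in 20 groups does so by chance, or 2.5 here. N-group animal 1 was high in Plpp2 (ratio 0.729), and N-group animal 13 was low in Lipa (ratio 0.793). No member probe set was among them.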

How the results depend on the processing

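No paired analysis was made. The rats were pair-fed, but partners are not labelled, and the diets share no animal numbers. Numbers of the diets follow each other, such as animals 1 and 2 or 4 and 5. Whether such neighbours were partners is not stated, and if they were, the tests used here leave that pairing out. Members were called in 0 cases under all single alternatives but 1. Centring each array on its varying probe sets called 1 member (Gpam 1382986_at, adjusted p = 0.00790) and 2 wider-pathway probe sets (Gpat4 at 0.0149, Ces1d at 0.0328), with 255 calls over all probe sets. By construction it passes the array offsets to the near-constant probe sets, and the degrees of freedom went to 23.4 from 8.45. The varying probe sets without C-group animal 11, added after seeing the data, called 1 of 32 wider-pathway probe sets and 0 members. That fit called 84 of all 4050 varying probe sets. With each liver left out in turn, 0 member and 0 wider-pathway probe sets were called. Over all 31042 probe sets, 10 were called without C-group animal 11 and 0 without any other liver. The count of member probe sets without overlap ran from 1 to 2, and the share over all varying probe sets was not counted. The median member difference ran from 0.015 to 0.13. The differences of Gpam, Plin2, Lpin2, Cideb, Dgat2 and Mgll kept their sign under all alternatives, though those of Dgat2, Cideb, Lpin2 and Mgll moved by over 1.5 times. They were 0.20 to 0.28 for Gpam 1369758_at, with adjusted p of 0.0664 to 1.0, and 0.33 to 0.48 for Plin2, with 0.0519 to 1.0. The difference of Lpin1 1377599_at also kept its sign, but fell from 0.13 to 0.0075 with array weights. Signs turned only where the difference was near 0 or rested on animal 11. Pnpla2 was at -0.012 with the block and -0.041 among varying probe sets without animal 11, and G0s2 at 0.0018 with the block. Dgat1 was at 5.3e-05 with array weights and 6.3e-05 with array position. Without animal 11, Lpin1 1372524_at was at -0.0067 and Plpp2 at -0.023, and Apob was at -0.000203 with array position. With each liver left out, Lpin1 1372524_at ran from -0.0067 to 0.25, Dgat1 from -7.2e-05 to 5.9e-05, Pnpla2 from -0.041 to 0.062, G0s2 from -0.17 to 0.17, Plpp2 from -0.030 to 0.056 and Apob from -0.049 to 0.092. The cause was not tested.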
